A study of Homo sapiens with 18 samples.

Results

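CD69, a lymphocyte activation marker, was measured by 2 bead-array probes in Raji and DG75 cells exposed for 1 h to Bay-11 or TPCK. It is 1 of the 10697 genes tested. It was chosen from measured values of these same arrays, namely its lower signal after 3 of the 4 treatments, so every CD69 value below is a description and carries no test. CD69 is a C-type lectin-like membrane protein that appears on lymphocytes soon after stimulation. It binds the sphingosine 1-phosphate receptor S1PR1 and removes it from the surface, which keeps activated lymphocytes in lymphoid tissue. In B cells, antigen receptor signals reach the CD69 gene through protein kinase C, the RAS to ERK cascade and NF-kB, and its promoter and enhancers are bound by AP-1, EGR and NF-kB factors. Its mRNA carries AU-rich elements and is short-lived.

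Raji and DG75 are established lines from Burkitt lymphoma, a malignancy of germinal centre B cells. Raji is positive for the Epstein-Barr virus, while DG75 is negative. Cells of each line were left untreated, given 50 µM Bay-11 (an inhibitor used to keep IkB from being phosphorylated and NF-kB from being released) or given 75 µM TPCK (a chloromethyl ketone, an alkylating inhibitor of serine proteases such as chymotrypsin), all for 1 h. The 6 groups held 3 arrays each. TPCK is named for Raji alone in the design text but for both lines in the titles, which were followed. No activating stimulus is given in the labels for any group. The 2 compounds were used at different doses, so differences between them are differences between these 2 treatments as given. Whether arrays of one group are independent cultures is not stated in the labels, so p-values measure only the spread between these arrays, which may be technical.

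Arrays are named by the number that begins each column name. Controls bear the numbers 13 to 18 and treated cells 1 to 12, so any effect of array order cannot be told apart from treatment. Between 13072 and 15903 probes were detected per array. Mean raw signal per probe was 171.5 to 201.6 in Raji controls, 205.9 to 256.4 after Bay-11 and 242.6 to 282.2 after TPCK, with no overlap between Raji controls and either treatment. All 8 B cell markers with a named probe, among them CD79A, CD79B and CD22, were detected in every group. The DG75 TPCK array 7 was alone in detecting 687 probes, where other arrays were alone in detecting 50 to 327. All 5 fibroblast markers and all 4 epithelial markers with a named probe were detected in its group. The fibroblast marker COL1A1 read 9.83 on array 7 against 4.34 and 4.38 on arrays 8 and 9. The myeloid markers CD14 (8.11 against 5.54 and 5.67) and CSF1R (6.05 against 4.26 and 4.34) were also higher there, while LYZ (5.29 against 5.92 and 5.55) was not. The DG75 Bay-11 array 10 had a mean correlation of 0.954 with its group. Values of DG75 treatments are therefore also given without arrays 7 and 10.

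Both CD69 probes are annotated to the same gene, and the main probe, ILMN_2188333, had the higher mean signal and stands for CD69 unless the second is named. It was detected on all 18 arrays, with a detection p-value of 0 on each. Values are background-corrected, quantile-normalized log2 signals. In bulk RNA, fewer cells with CD69 transcript and less transcript per cell cannot be told apart.

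In untreated Raji the CD69 signal was 9.59, 9.28 and 9.37 on arrays 16, 17 and 18. In Raji after Bay-11 it was 8.04, 8.39 and 7.63 on arrays 4, 5 and 6. Every Bay-11 array lay below every control array. The difference was -1.39 (SE 0.18, 95% interval -1.779 to -1.004), a 2.62-fold lower signal. Only the AP-1 subunit gene FOSB had a lower change among the 10697 genes, and the next genes in order were BEGAIN and the zinc finger factor KLF10.

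In Raji after TPCK the CD69 signal was 9.54, 9.08 and 8.97 on arrays 1, 2 and 3. Array 1 lay within the control range and the groups overlapped. The difference from control was -0.22 (SE 0.18, 95% interval -0.61 to 0.17), at place 1106 from the lowest change. Its sign depended on the scaling: it was 0.40 after centring each array on the median of all probes and 0.52 with no normalization between arrays. The median over all genes moved by 0.55 and 0.66 in those settings, so CD69 lay below it in both. Another scaling, added after those values had been seen, centred each array on the probes that passed the detection filter and gave -0.18. These arrays therefore give no direction for CD69 after TPCK in Raji. The raw signal itself, before any correction, was 409 to 560 in Raji controls and 664 to 771 after TPCK, while the raw mean over all probes was also higher after TPCK.

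Between the 2 Raji treatments, CD69 was 1.17 higher after TPCK than after Bay-11 (SE 0.18, 95% interval 0.79 to 1.56), or 2.26-fold. All 3 TPCK arrays exceeded all 3 Bay-11 arrays, and only 2 genes had a higher difference.

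In untreated DG75 the CD69 signal was 7.90, 8.13 and 8.04 on arrays 13, 14 and 15. In DG75 after Bay-11 it was 6.89, 7.03 and 6.71 on arrays 10, 11 and 12. The groups did not overlap, and the difference was -1.15 (SE 0.18, 95% interval -1.53 to -0.76), a 2.21-fold lower signal. CD69 stood at place 71 from the lowest change in this comparison. Its neighbours in that order, GABPA, ZMAT5, NSUN5P1 and SRPK2, each had their lowest Bay-11 value on array 10, with GABPA at 4.77 there against 7.95 and 7.36. Without arrays 7 and 10 the CD69 difference was -1.15 (SE 0.21) and its place was 7.

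In DG75 after TPCK the CD69 signal was 7.13, 6.93 and 6.83 on arrays 7, 8 and 9. On this normalized scale the 3 arrays also lay below all DG75 controls. The raw signal, before any correction, was 206 to 283 in controls and 128 to 237 after TPCK, which overlapped. The raw mean over all probes was 182.1 to 235.1 in controls and 208.5 to 298.4 after TPCK. The difference was -1.06 (SE 0.18, 95% interval -1.45 to -0.67), a 2.08-fold lower signal, at place 23 from the lowest change. Without arrays 7 and 10 it was -1.14 (SE 0.21). TPCK and Bay-11 gave overlapping CD69 signals in DG75, with a difference of 0.09 (SE 0.18, 95% interval -0.30 to 0.48), an interval that leaves room for a moderate difference either way.

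**Figure D1:**
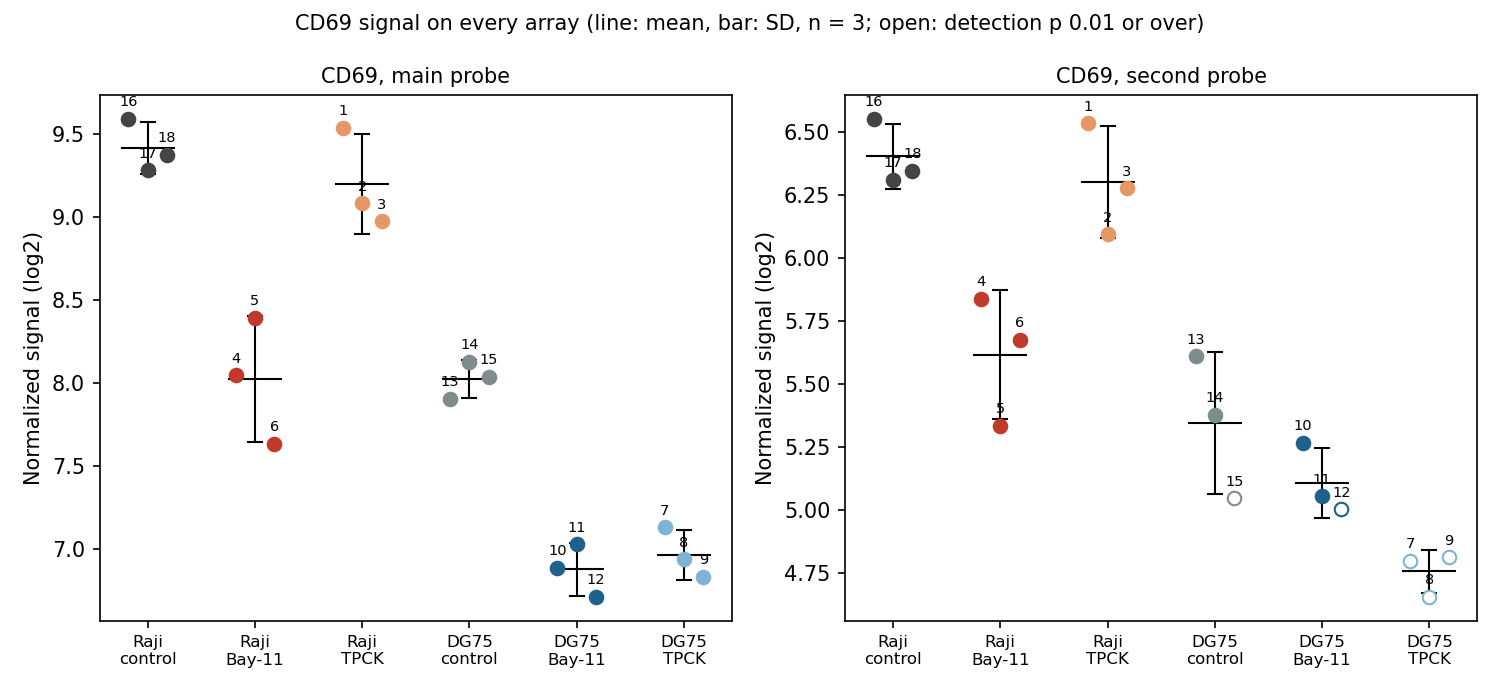
Normalized log2 signal of the 2 CD69 probes on each of the 18 arrays, by group, with array numbers; lines are group means, bars SD with n = 3, and open points have a detection p of 0.01 or over. The main probe was lower than control after Bay-11 in both lines and after TPCK in DG75, while Raji TPCK arrays overlapped their controls here (the sign of that difference turned under centring on all probes and with no normalization); the vertical axes differ, and no level is compared between the probes.

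The lines also differed before treatment. Untreated DG75 differed from untreated Raji by -1.39 in CD69 signal (SE 0.18), or 2.63-fold lower, with no overlap. In order of the group means, CD69 was 9.41 ± 0.16 in Raji control, 9.20 ± 0.30 in Raji TPCK, 8.02 ± 0.38 in Raji Bay-11, 8.02 ± 0.11 in DG75 control, 6.96 ± 0.15 in DG75 TPCK and 6.87 ± 0.16 in DG75 Bay-11 (SD, n = 3 each). Neighbours in this order overlapped in 3 pairs: Raji control with Raji TPCK, Raji Bay-11 with DG75 control, and DG75 TPCK with DG75 Bay-11. The 3 Bay-11-treated Raji arrays, from 7.63 to 8.39, spanned the range of untreated DG75. CD3D, a T cell gene, was also higher in Raji, at 7.05 to 7.23 in controls against 4.23 to 4.48 in DG75. So was the cytotoxic granule gene NKG7. Genes of other lineages did likewise: between controls, DG75 minus Raji, the myeloid gene CSF1R differed by -2.88 and the fibroblast gene COL1A1 by -2.297. The natural killer cell marker NCAM1 differed by 0.02, CD14 by -0.18, LYZ by 0.52 and the epithelial marker EPCAM by 0.01. The part of these genes in the CD69 difference was not tested.

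The effect of Bay-11 on CD69 differed between lines by 0.24 (DG75 minus Raji, SE 0.26, 95% interval -0.30 to 0.79). The effect of TPCK differed by -0.84 (SE 0.26, 95% interval -1.39 to -0.29, DG75 minus Raji), where the Raji effect itself has no settled direction. Over all genes, limma called 0% of 10697 for the Bay-11 difference between lines, that is 0 genes with 692 at an unadjusted p under 0.05. It likewise called 0% for the TPCK difference, that is 0 genes with 595 at an unadjusted p under 0.05. CD69 is part of that family and is not set apart from it by a test.

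The second probe, ILMN_1651316, was close to background in DG75. In Raji it read 6.55, 6.31 and 6.35 in controls, 5.84, 5.33 and 5.68 after Bay-11 and 6.53, 6.09 and 6.28 after TPCK. Bay-11 arrays again lay below all Raji controls, by 0.79 in the mean (difference -0.79, SE 0.17), and the TPCK difference was -0.10 (SE 0.17). In DG75 it read 5.61, 5.38 and 5.05 in controls and 5.27, 5.05 and 5.00 after Bay-11, where the groups overlapped and the difference was -0.24 (SE 0.17). It was detected on 2 of 3 DG75 control arrays, 2 of 3 Bay-11 arrays and 0 of 3 TPCK arrays. After TPCK it was not well above background, so its difference has no settled size. With each TPCK array raised to at least its lowest detected signal, the mean was 1.35-fold lower than control. That value takes no account of the spread between arrays, and control array 15 was itself undetected. The fitted 95% interval was -0.94 to -0.24. Because it was undetected after TPCK, the second probe gives no order of the 2 treatments in DG75, and the interval of the main probe spans 0. Over 18 arrays the probes correlated with r = 0.918, and over the 9 Raji arrays with r = 0.847, points that share their arrays and, in the first case, the difference between lines.

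**Figure D2:**
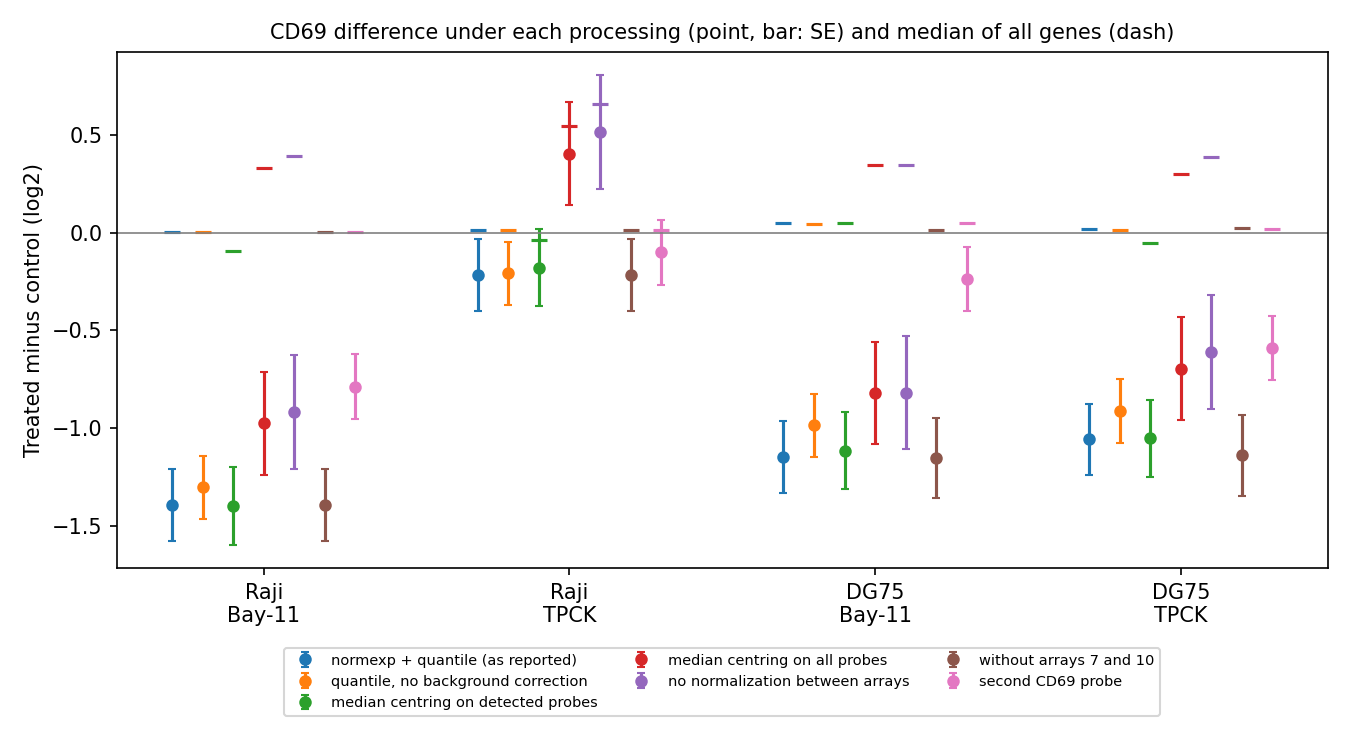
CD69 difference, treated minus control, in log2 units for the 4 treatment comparisons under 7 processing settings; points are fitted differences, bars SE, and dashes the median of all genes in the same setting. Values for Bay-11 in both lines and TPCK in DG75 stayed below 0 in each setting drawn, while Raji TPCK was -0.22 as reported and 0.40 or 0.52 under centring on all probes or no normalization.

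Genes around CD69 were described in 8 lists: its transcription factors, its upstream signalling, its partners, neighbouring lectins, activation markers, early response genes, NF-kB targets, and AU-rich mRNA binding and decay. Together they held 144 measured genes other than CD69. The lists were drawn up with earlier results of these data known. Their counts are therefore descriptions, and the share of all genes beside them is no test. A gene is called when its limma p, adjusted by Benjamini-Hochberg over all 10697 genes of a comparison, is under 0.05. In Raji after Bay-11, 8 of the 144 fell and 0 rose, where 1.51% of all genes were called in either direction, 94 up and 67 down. In Raji after TPCK 3 fell and 0 rose, where 0.439% of all genes were called, 25 up and 22 down. In DG75 3 fell and 0 rose after Bay-11, where 0.617% of all genes were called, 47 up and 19 down. After TPCK in DG75 4 fell and 0 rose, where 0.495% were called, 18 up and 35 down. The medians of the 144 genes were -0.01, -0.02, 0.05 and 0.05 in these 4 comparisons, beside 0.01, 0.01, 0.05 and 0.02 over all genes. The direction of these counts depended on the scaling. After centring on all probes, 7 list members were higher and 1 lower in Raji after Bay-11, 43 higher and 0 lower in Raji after TPCK, and 4 higher and 1 lower in DG75 after Bay-11. With no normalization they were 5 higher and 1 lower, 65 higher and 0 lower, and 0 of either. Centring on detected probes gave 0 higher in each comparison and 4, 2, 1 and 1 lower. By the second deposited table, list members in Raji after Bay-11 numbered 21 higher and 11 lower. The falls below are thus relative to the quantile scale, and no single named call turned its sign in the settings tried on the raw table. Most of these 32 calls were nevertheless lost under other scalings. After centring on all probes 7 stayed called, with no normalization 5 and with centring on detected probes 13.

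Of 21 measured CD69 transcription factors, FOSB alone was called in Raji. FOSB read 9.80, 9.84 and 9.65 in Raji controls, 8.08, 8.04 and 7.95 after Bay-11 and 8.77, 8.77 and 8.58 after TPCK. It fell by 1.74 after Bay-11 (limma, SE 0.16, adjusted p = 3.38e-05) and by 1.06 after TPCK (SE 0.16, adjusted p = 0.0046). The 3 groups did not overlap, and both calls held with any 1 array left out. In DG75 FOSB differed by -0.46 after Bay-11 (adjusted p = 0.161) and by 0.19 after TPCK (adjusted p = 0.693), and limma called 0 of the 21 factors there, with 6 and 1 at an unadjusted p under 0.05 after Bay-11 and TPCK. The difference between lines in the FOSB effect was not called for either treatment.

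The other factors were not called in any treatment comparison. EGR1, a zinc finger factor of the ERK response, differed by -0.96 in Raji after Bay-11 (limma adjusted p = 0.0559). NFKB2, which encodes the NF-kB p100 precursor, differed by 0.99 in DG75 after Bay-11 (limma adjusted p = 0.0544). CREB1 and JUND, the factors with the highest mean signal, had no called change.

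Upstream of CD69, 0 of 21 signalling genes, from the kinases LYN, SYK and BTK through PLCG2 and protein kinase C to the ERK and IkB kinases, were called by limma in the 4 treatment comparisons, with 1 to 5 at an unadjusted p under 0.05 in each. PLCG2, the phospholipase of the antigen receptor pathway, differed by 0.09 in Raji and 0.25 in DG75 after Bay-11. Of 8 measured partners and S1P receptors, limma called 0 in any treatment comparison, with 0 or 1 at an unadjusted p under 0.05. S1PR1 itself had no named probe here. SLC7A5, the amino acid transporter that CD69 associates with, differed by -0.25 after Bay-11 in each line.

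CD69 lies in the natural killer gene complex of chromosome 12, beside other lectin-like receptors. Of 7 measured genes of that complex, limma called 0 in any treatment comparison, with 0 or 1 at an unadjusted p under 0.05. CLEC2D, the ligand of KLRB1 and a relative of CD69, ran from 13.71 to 14.12 over all 18 arrays. Its Bay-11 difference was -0.16 in Raji and -0.06 in DG75. CLEC2B, another relative, read 4.91 to 5.33 in Raji controls and 5.18 to 5.52 after Bay-11, a difference of 0.14. Its signals lay near background, which leaves little room for a fall like that of CD69. RUNX1, at 4.68 to 4.91 in Raji controls, was detected on 0 of 3 arrays there. KLRB1 had no named probe here.

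Among 18 activation markers other than CD69, FAS, a death receptor induced on activated B cells, fell in Raji after Bay-11. It read 7.17, 7.09 and 7.20 in controls and 6.27, 6.51 and 6.39 after Bay-11, a difference of -0.76 (limma, SE 0.14, adjusted p = 0.0175). That call was lost without any 1 of arrays 4, 6, 16, 17 and 18 (highest adjusted p = 0.0826). Limma called 0 of the 18 in each of the other 3 treatment comparisons, with 1 to 4 at an unadjusted p under 0.05. CD83 and TFRC, which rank with CD69 as markers of activated B cells, differed by -0.01 and -0.15 in Raji after Bay-11, where CD69 differed by -1.39.

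Early response genes are transcribed within minutes to hours of stimulation. Of 31 measured, 6 fell in Raji after Bay-11 and 3 after TPCK. In DG75 1 fell after Bay-11 and 2 after TPCK, and 0 rose in any comparison. Over all genes limma called 1.51% and 0.439% in Raji after Bay-11 and TPCK, and 0.617% and 0.495% in DG75. As given above, the direction of list counts depended on the scaling. Members of this list were chosen with earlier results known, so its counts were not free of that choice. SGK1, a serum-induced kinase, fell in all 4 comparisons. It read 11.22, 11.21 and 11.38 in Raji controls and 10.40, 10.48 and 10.47 after Bay-11. Its differences were -0.82 and -0.70 in Raji after Bay-11 and TPCK (limma adjusted p = 0.00981 and 0.0315). In DG75 they were -0.95 and -0.75 (limma adjusted p = 0.00268 and 0.0146). The Bay-11 calls held with any 1 array left out, the Raji TPCK call did not hold in any of 6 omissions (highest adjusted p = 0.141), and the DG75 TPCK call was lost without any 1 of arrays 8, 9, 13 and 14 (highest adjusted p = 0.0825).

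KLF10 and KLF6, zinc finger factors of the early response, also fell in Raji after Bay-11. KLF10 read 6.41, 6.70 and 6.86 in controls and 5.38, 6.04 and 4.93 after Bay-11, a difference of -1.21 (limma, SE 0.26, adjusted p = 0.0376). Its difference after TPCK in Raji was -0.15 (adjusted p = 0.999), and in DG75 it was -0.96 after Bay-11 (adjusted p = 0.0962) and -0.76 after TPCK (adjusted p = 0.269). KLF6 fell by 0.94 after Bay-11 and by 0.96 after TPCK in Raji (limma adjusted p = 0.0283 and 0.0379). RGS1, a regulator of G protein signalling, and DUSP1, a MAP kinase phosphatase, fell by 0.66 and 0.77 in Raji after Bay-11 (limma adjusted p = 0.0449 and 0.0492). With 1 array left out in turn, the Bay-11 calls of RGS1 and DUSP1 were lost in all 6 omissions and those of KLF10 and KLF6 in all but that of array 5 (highest adjusted p = 0.214). The KLF6 call after TPCK was lost in all but the omission of array 1. In DG75 after TPCK, BTG1, an antiproliferative gene, fell by 0.53 (limma adjusted p = 0.0359), a call lost in all 6 omissions.

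Of 35 NF-kB targets, 1 fell in Raji after Bay-11, 0 in Raji after TPCK and 2 in DG75 after each treatment, and 0 rose. Over all genes 1.51% and 0.439% were called in Raji after Bay-11 and TPCK, and 0.617% and 0.495% in DG75. In Raji after TPCK limma gave 4 of the 35 targets an unadjusted p under 0.05. CXCL8, a chemokine, was called in 3 of the 4 comparisons. It read 6.90, 7.01 and 6.91 in Raji controls and 5.38 to 6.17 on the 3 Bay-11 arrays, a difference of -1.09 (limma, SE 0.19, adjusted p = 0.0120). In DG75 it read 9.33, 9.07 and 9.47 in controls, 7.89, 7.60 and 7.93 after Bay-11 and 7.83, 8.16 and 7.60 after TPCK. These differences were -1.48 and -1.43 (limma, adjusted p = 0.000908 and 0.000637), and both held with any 1 array left out. After TPCK in Raji it read 6.28, 6.30 and 6.33, below all 3 controls, a difference of -0.64 that was not called (limma adjusted p = 0.266). The Raji Bay-11 call was lost without array 17 (adjusted p = 0.0503).

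Between untreated lines CXCL8 and CD69 went opposite ways, CXCL8 being 2.35 higher in DG75 (limma adjusted p = 2.28e-08). NFKBIZ, a nuclear IkB protein, fell by 0.52 in DG75 after Bay-11 (limma adjusted p = 0.0362). That call was lost in all omissions but that of array 12 (highest adjusted p = 0.152). BCL2A1, an anti-apoptotic gene, fell by 1.03 in DG75 after TPCK (limma adjusted p = 0.0359), a call lost without any 1 of arrays 7, 9, 13 and 14 (highest adjusted p = 0.216). NFKBIA, which encodes IkB alpha, differed by -0.51, -0.39, -0.71 and -0.54 in the 4 comparisons and was called in none (lowest of the 4 limma adjusted p = 0.0939).

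Of 25 measured genes of AU-rich mRNA binding and decay, limma called 0 in any treatment comparison, with 2 to 6 at an unadjusted p under 0.05. HNRNPD (AUF1) and CNOT1, the scaffold of the CCR4-NOT deadenylase, differed by -0.07 and -0.04 in Raji after Bay-11.

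**Figure D3:**
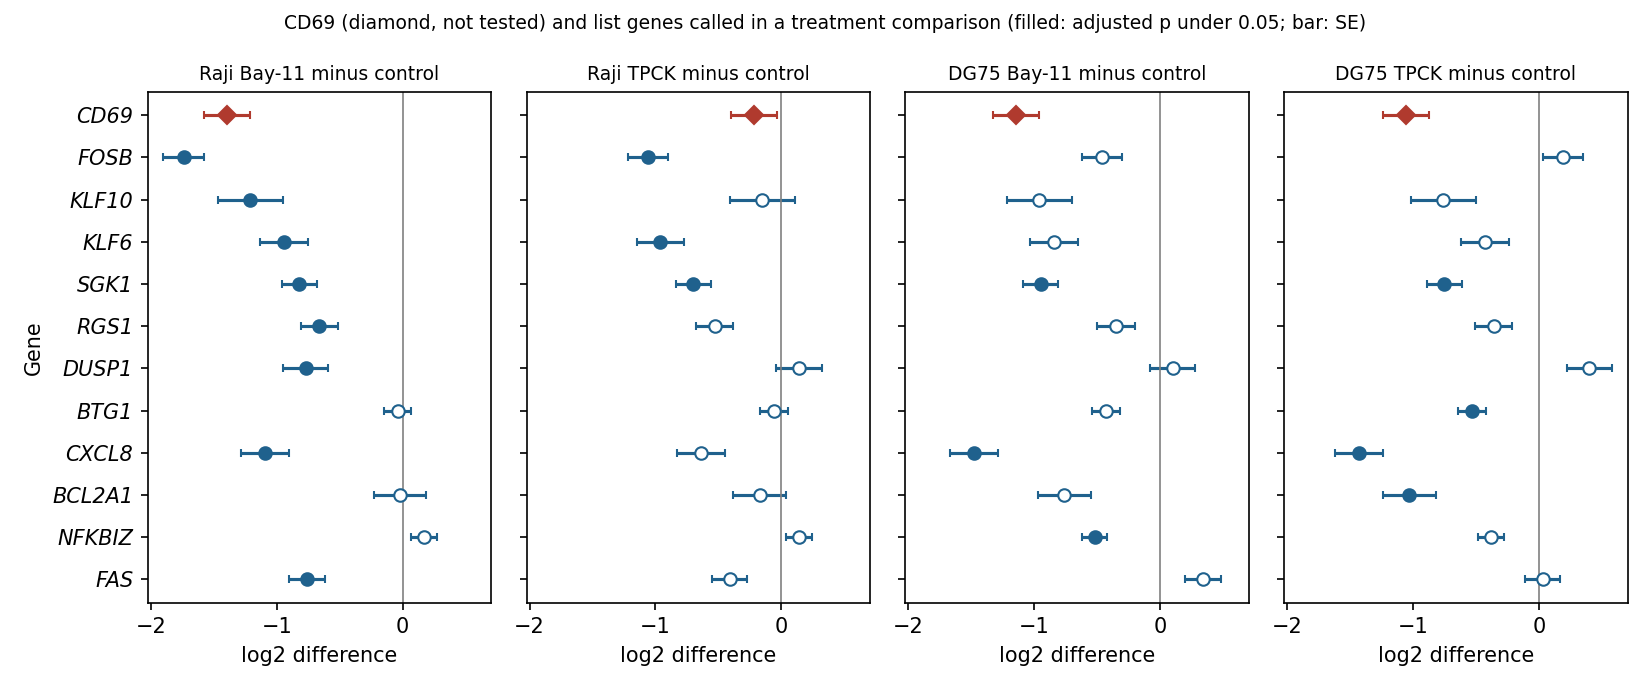
Log2 difference, treated minus control, of CD69 (diamond, not tested) and of the 11 list genes called in at least 1 treatment comparison; bars are SE and filled circles have an adjusted p under 0.05. CD69 lay at -1.39, -0.22, -1.15 and -1.06, while FOSB was called in both Raji comparisons and in neither of DG75; the sign of CD69 in Raji after TPCK turned under centring on all probes and with no normalization.

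The untreated lines differed more widely. Of the 144 list genes, 29 were higher and 50 lower in DG75, where 38.9% of all genes were called, 2214 higher and 1949 lower. Among 18 activation markers 10 were lower and 1 higher in DG75, and among 35 NF-kB targets 22 were lower and 4 higher. The CD86 difference was -2.06 (limma adjusted p = 1.12e-09) and the CD83 difference -1.02 (limma adjusted p = 6.01e-06), DG75 minus Raji. The list medians were -0.77 for activation markers and -1.02 for NF-kB targets, beside 0.03 over all genes. The CD69 difference of -1.39 stood at place 457 from the lowest.

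The genes whose signals followed CD69 most closely over 18 arrays were NXT1 (r = 0.946), an mRNA export cofactor, NIPA2 (r = 0.945), a magnesium transporter, TXNDC9 (r = 0.942), ARSB (r = 0.934), DUSP10 (r = 0.933), a phosphatase of stress kinases, and CDKN2AIP (r = 0.932). These correlations include the difference between lines. After subtraction of each line's mean the closest were ZNF800 (r = 0.899), TIPARP (r = 0.899), RNF138 (r = 0.896), CHMP3 (r = 0.890), KLF10 (r = 0.877) and NIPA2 (r = 0.874), over the same 18 arrays. They were picked as the highest of all genes, share array and scaling with CD69, and are descriptions. CD69 was itself chosen for its lower signal on these arrays, so the picking favoured genes that fell. Their limma calls below, and the omissions of 1 array, are therefore no separate support.

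TIPARP, a mono-ADP-ribosyltransferase, read 8.74, 8.52 and 8.75 in Raji controls and 7.87, 7.90 and 7.72 after Bay-11. It fell by 0.84 in Raji after Bay-11 (limma adjusted p = 0.00487), and by 0.89 and 0.77 in DG75 after Bay-11 and TPCK (limma adjusted p = 0.00158 and 0.00316). All 3 calls held with any 1 array left out. After TPCK in Raji it differed by -0.38 (limma adjusted p = 0.354). Its level was opposite to that of CD69 between lines, 1.93 higher in untreated DG75 (limma adjusted p = 1.01e-09).

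DUSP10 fell by 0.84 in Raji after Bay-11 and by 0.94 and 1.02 in DG75 after Bay-11 and TPCK (limma adjusted p = 0.0363, 0.0267 and 0.0146). In Raji after TPCK it differed by -0.64 (limma adjusted p = 0.244), with 6.01 to 6.51 after TPCK and 6.88 to 7.01 in controls, which did not overlap. Each of the 3 calls was lost in 5 of 6 omissions. ZNF800, a zinc finger gene, fell in DG75 by 0.91 after Bay-11 and by 0.67 after TPCK (limma adjusted p = 0.00536 and 0.0422). The second of these calls was lost in all 6 omissions. In Raji after Bay-11 ZNF800 differed by -0.58 (limma adjusted p = 0.0504), and its Bay-11 arrays, at 7.41 to 7.85, lay below controls at 8.16 to 8.37. CHMP3, an ESCRT-III subunit, fell by 0.72 in Raji after Bay-11 (limma adjusted p = 0.0206), and was lost in 5 of 6 omissions.

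Opposite to CD69 after subtraction of the line mean ran STK36 (r = -0.918), a kinase of the Hedgehog pathway, TAF1C (r = -0.915), a subunit of an RNA polymerase I initiation factor, SAPCD1 (r = -0.915) and KLHL17 (r = -0.882). KLHL17 read 5.20, 5.48 and 5.70 in Raji controls and 6.75, 6.29 and 7.01 after Bay-11, and rose by 1.22 (limma adjusted p = 0.0138). STK36 rose by 0.62 in Raji and 0.68 in DG75 after Bay-11 (limma adjusted p = 0.0426 and 0.0383). SAPCD1 and TAF1C rose by 1.09 and 0.58 in Raji after Bay-11 (limma adjusted p = 0.0175 and 0.0345). Each of these 5 calls was lost in 4 or 5 of 6 omissions. These genes were picked as the lowest correlations on the same arrays, which favoured genes that rose, so their calls are no separate support either.

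**Figure D4:**
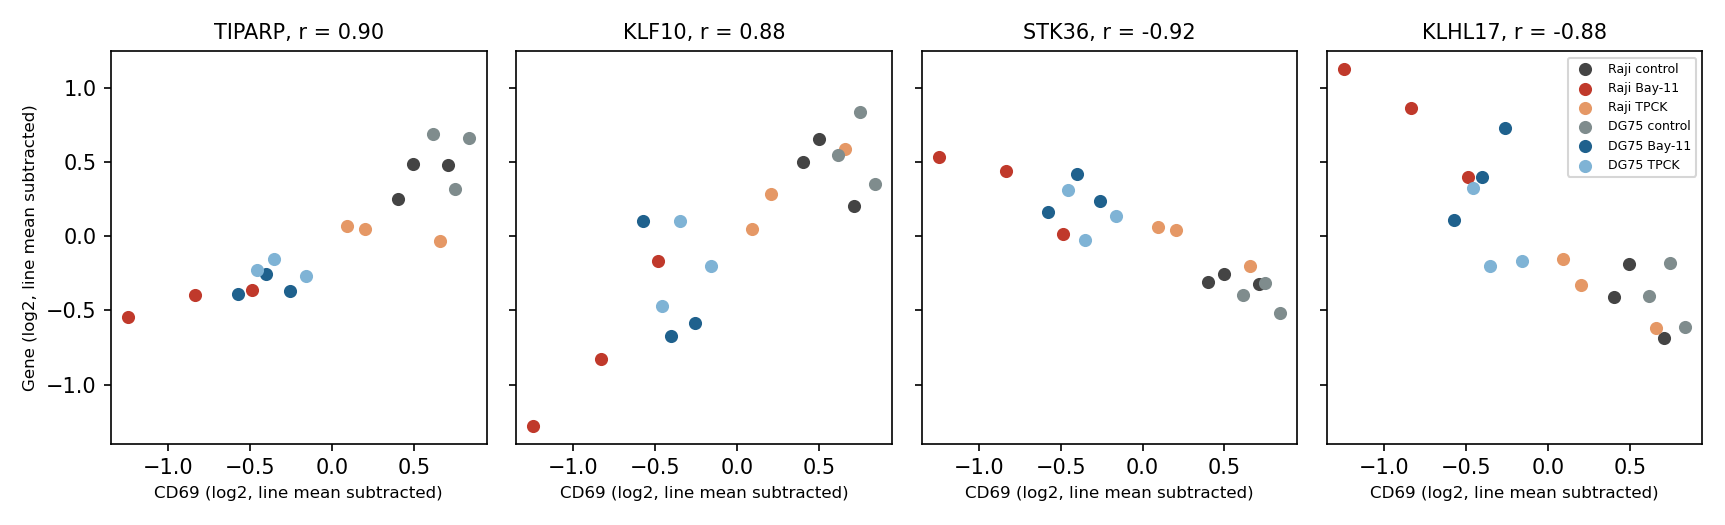
Log2 signal of TIPARP, KLF10, STK36 and KLHL17 against that of CD69 on the 18 arrays, each with its line's mean subtracted; colours are the 6 groups and r is Pearson's correlation, given without a test because the genes were picked for it. Bay-11 arrays of Raji lie at the low end of CD69 and controls at the high end, with correlations of 0.90, 0.88, -0.92 and -0.88.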

How the data were processed

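Total RNA of 18 samples was labelled and hybridised to Illumina bead arrays. Raw bead signals of 49576 probes were deposited as log2 values, per the file headers, each with a deposited detection p-value. The software and the build: not given in the sources used here. A second deposited table of log2 values for 22789 probes carries replicate numbers. In it 10 columns are centred near 0 by an unstated method and the other DG75 columns are raw signals, so it was used as an alternative where the columns compared had one scale.

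Signals were corrected and quantile normalized by the neqc function (limma 3.58.1, R 4.3.3, offset 16). Probes with a detection p under 0.01 on at least 3 arrays were kept, 17652 in all. Symbols came from the platform's probe table, in which 17109 probes had 1 symbol and 3 several; 32464 other probes were unnamed here. Of these symbols 17095 were matched by Entrez identifier to the reference gene table (GRCh38.p14 names). The kept probe with the highest mean stood for each gene, which gave 10697 genes.

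One model of 6 group means was fitted with lmFit and eBayes (12 residual and 4.26 prior degrees of freedom), with Benjamini-Hochberg adjustment within a comparison and a threshold of 0.05. The code was tested on simulated data. The number of arrays limits the precision. No 2 arrays held identical values (0 pairs), and 0 columns were left unused.

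Named genes are CD69, the genes most and least like it, up to 4 called members per list and comparison with the largest change (where none was called, up to 2 with the highest mean), its relatives and reference genes, and its neighbours in the ranking of changes. SYK, BTK, LYN, EGR1, NFKB2 and CD86 were added to the text with their values known. So were the cell-type genes CD3D, NKG7, CSF1R, COL1A1, NCAM1, CD14, LYZ and EPCAM. CD69, the lists and the rules were chosen with earlier results of these data known.

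For the alternatives, centring was first run on the median of all probes. Centring on detected probes was added after its values had been seen, and both are reported. Deviations of same-numbered Raji Bay-11 and TPCK columns of the second table had correlations of 0.119, 0.102 and 0.203. Columns of different number were not correlated for comparison, so these values cannot show whether the numbers pair samples, and the labels do not say. The replicate block is an alternative only.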

Additional observations from a re-analysis of the deposited data

Results flagged for a closer look

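For 2 list genes the treated arrays lay wholly to one side of controls in Raji and wholly to the other side in DG75. How many of all genes show such a pattern was not counted, so these 2 are examples only. NFKBIZ after Bay-11 differed from control by 0.17 in Raji and -0.52 in DG75, a difference between lines of -0.69 (limma interaction, adjusted p = 0.265). NFKBIZ after TPCK differed by 0.14 in Raji and -0.38 in DG75, a difference of -0.52 (limma interaction, adjusted p = 0.762). In Raji this was a near tie, with control array 17 and TPCK array 3 both at 10.34. SP1, a factor of the CD69 promoter list, differed after Bay-11 by -0.44 in Raji and 0.35 in DG75, a difference of 0.78 (adjusted p = 0.429). None of the 3 differences was called, and their causes were not tested.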

How the results depend on the processing

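CD69 differences kept their sign and stayed within the spread between arrays without background correction, without the detection filter, with only the groups compared, without arrays 7 and 10 and in all 66 values with 1 array left out. Centring on the median of all probes gave -0.98, 0.40 (reversed), -0.82 and -0.70 for Raji Bay-11, Raji TPCK, DG75 Bay-11 and DG75 TPCK, -1.09 between untreated lines and -1.10 for the TPCK difference between lines. No normalization gave -0.92, 0.52 (reversed), -0.82 and -0.61, 1.43 for Raji TPCK minus Bay-11, -1.08 between lines and -1.13 for the TPCK difference. These 2 settings also moved the median of all genes, by 0.33, 0.55, 0.34 and 0.30 and by 0.39, 0.66, 0.35 and 0.39. Centring on detected probes, added after the all-probe values had been seen, gave -1.40, -0.18, -1.12 and -1.05; the sign in Raji after TPCK thus rests on which probes set the scale. The second table gave -1.69 (Raji Bay-11), 1.58 (Raji TPCK minus Bay-11) and -0.52 (DG75 TPCK), and the same with the replicate block. The second probe gave -0.79, -0.24, -0.59, 0.69, -0.35 (reversed, DG75 TPCK minus Bay-11), -1.06, 0.55 and -0.49; this probe was detected on 0 of 3 DG75 TPCK arrays, so -0.59, -0.35 and -0.49 are fitted values at background and give no size or order there. Genes called (Raji Bay-11, Raji TPCK, DG75 Bay-11, DG75 TPCK) numbered 161, 47, 66 and 53 as reported, with 94, 25, 47 and 18 of them up. They numbered 728, 3271, 272 and 22 under all-probe centring, with 724, 3260, 269 and 16 of them up, and 640, 5059, 10 and 13 without normalization (638, 5054, 10 and 12 up). They were 35 (14 up) in Raji and 30 (20 up) in DG75 after Bay-11 with detected-probe centring, 413, 4 (DG75 Bay-11) and 26 (DG75 TPCK) with only the groups compared, 487 and 35 after Bay-11 without arrays 7 and 10, and 1668 (1604 up), 148 (135 up) and 4 (DG75 TPCK) in the second table. With the replicate block these were 1686, 141 and 97. Deviations of same-numbered columns in those comparisons had correlations of -0.14 to 0.071, which cannot show whether the numbers pair samples. With 1 array left out the counts ran 27 to 202, 19 to 26, 15 to 1061 (without array 12) and 28 to 39. List counts became 43, 5 and 0 (Raji TPCK, DG75 Bay-11, DG75 TPCK) under all-probe centring, 65, 0 and 0 without normalization, 4, 1 and 1 (Raji Bay-11, DG75 Bay-11, DG75 TPCK) with detected-probe centring and 17, 0 and 1 with only the groups compared. They were 16 without arrays 7 and 10, 32 and 0 in the second table, 33 and 0 with the replicate block, and 2 to 8, 1 to 2, 2 to 17 and 1 to 3 with 1 array left out. Of 32 calls of single named genes, 10 held in every omission of 1 array and 22 were lost at least once. Without background correction 30 stayed called, without the detection filter 29, and without arrays 7 and 10 27. With the probe of largest range standing for each gene 24 stayed called, and with only the groups compared 18. Detected-probe centring kept 13, all-probe centring 7 and no normalization 5. Other causes were not tested.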
